A study of Mus musculus with 12 samples.

Results

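The integrated stress response is a program of gene expression, and 10 of its transcripts are described here across 4 treatments of mouse fibroblasts. They were taken by name as Atf4, other transcription factors of the program and their targets: Atf4, Atf3, Atf5, Ddit3, Ppp1r15a, Trib3, Asns, Chac1, Sesn2 and Ddit4. No measured value was part of that rule, but the set was chosen with earlier results of these data known. All 10 were found by symbol among the 56980 gene IDs of the count table, and all 10 were among the 16648 genes with enough reads to be tested. The libraries were made from polyadenylated RNA of NIH/3T3 cells, an immortalised line of wild-type mouse embryonic fibroblasts. Each of 4 groups had 3 libraries, all after 8 h. The cells had received 200 nM carfilzomib with 5 µM doxorubicin (CFZ-DOX), 5 µM doxorubicin (DOX), 200 nM carfilzomib (CFZ) or the vehicle DMSO. All groups share the same line, genotype and growth medium, so 1 line, 1 dose of each drug and 1 time were compared. Carfilzomib blocks the proteasome irreversibly, while doxorubicin intercalates in DNA and traps topoisomerase II. Nothing in the labels tells whether the replicates came from different cultures, so the p-values rest on a spread between libraries that may be technical.

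In the integrated stress response, kinases that each sense a different stress phosphorylate the translation initiation factor eIF2, which lowers protein synthesis in general. Translation of the Atf4 and Atf5 messages rises under those conditions because of open reading frames upstream of their coding sequences, so the RNA level of these genes is not a measure of their protein. ATF4 binds C/EBP-ATF response elements, often as a dimer with a C/EBP protein, and activates genes for amino acid supply, redox balance and further transcription factors such as ATF3 and CHOP, the product of Ddit3. Ppp1r15a encodes GADD34, which brings a phosphatase to eIF2 and closes the loop. In fibroblasts the pathway is known to answer unfolded proteins, amino acid shortage and proteasome inhibition.

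Promoter sequences of the 10 genes (RefSeq, mouse build GRCm38.p6, 250 bases before to 50 bases after each start, 11 windows because Atf5 has 2) were searched on both strands for the C/EBP-ATF response element TGATGNAA and for the cAMP response element TGACGTCA, a site bound by ATF and CREB family dimers. TGATGNAA was found in 4 of the 11 windows, those of Atf3, Chac1, Asns and Trib3, against 3.97% of all 32851 promoters. TGACGTCA was found in 1 of them, that of Ppp1r15a, against 1.79% of all promoters. No match of one motif overlapped a match of the other. The stretches around these matches are printed because these 5 genes took different courses under the drugs. Each is given 5′ to 3′ on the strand of its gene, with the match in capitals, and TTGCATCA and TTACATCA are TGATGNAA read on the other strand. A match is a run of letters and not a measured site of binding, and a window with no match holds no statement about the factor.
Atf3, chr1:191183376-191183503, minus strand, match beginning 110 bases before the start: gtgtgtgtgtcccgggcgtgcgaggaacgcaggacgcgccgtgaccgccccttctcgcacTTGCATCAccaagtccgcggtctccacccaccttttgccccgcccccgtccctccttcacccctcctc
Chac1, chr2:119350992-119351116, plus strand, match beginning 193 bases before the start: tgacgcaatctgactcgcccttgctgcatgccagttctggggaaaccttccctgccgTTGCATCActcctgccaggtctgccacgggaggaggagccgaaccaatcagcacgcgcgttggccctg
Asns, chr6:7693210-7693292, minus strand, match beginning 23 bases before the start: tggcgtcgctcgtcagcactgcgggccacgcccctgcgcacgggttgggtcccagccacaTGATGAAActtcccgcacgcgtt
Ppp1r15a, chr7:45526269-45526340, minus strand, match beginning 12 bases before the start: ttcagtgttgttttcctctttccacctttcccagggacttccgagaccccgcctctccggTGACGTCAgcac
Trib3, chr2:152344028-152344057, minus strand, match beginning at base 15 after the start: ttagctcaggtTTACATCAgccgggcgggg

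Total counts per library were 28278879 to 42033993, and levels are given as CPM, reads scaled to a common library size, normalised by the trimmed mean of M values (TMM). Fibroblast markers had a summed level of 41929 to 103586 CPM in CFZ-DOX, 28495 to 65608 CPM in DOX, 17872 to 27696 CPM in CFZ and 24599 to 31815 CPM in DMSO. Within that list Pdgfra averaged 26.9 ± 7.79 CPM in CFZ-DOX, 35.1 ± 6.12 CPM in DOX, 138 ± 37.4 CPM in CFZ and 161 ± 62.3 CPM in DMSO, and Pdgfrb 51.0 ± 8.95, 74.6 ± 23.8, 45.1 ± 10.9 and 187 ± 38.9 CPM in the same order of groups. Both averages were lower in the groups with doxorubicin than in DMSO, unlike the summed level. Summed markers of epithelial, endothelial, leukocyte, muscle and neural cells were at most 189 CPM in any library, and Cdkn2a, a gene that NIH/3T3 cells are known to have lost, had 0 counts in all 12, which at 3 counts allows up to 0.106 CPM of the total count, without TMM factors. Summed leukocyte markers were 10.4 to 13.4 CPM in CFZ-DOX, 2.57 to 4.19 CPM in DOX, 1.27 to 1.60 CPM in CFZ and 0.923 to 1.35 CPM in DMSO, and summed muscle markers 19.9 to 29.6, 11.4 to 24.2, 2.54 to 5.58 and 6.79 to 8.66 CPM in the same order of groups. The part of these cells in the results was not tested. The 77 cytosolic ribosomal protein genes took 9.99 to 10.6% of counts in CFZ-DOX, 6.71 to 7.27% in DOX, 3.91 to 4.40% in CFZ and 3.98 to 4.32% in DMSO. On a principal component with 4.64% of the variance (PC3), DOX replicate 3 (−60.6) lay apart from its group (6.7 and −7.1), as did CFZ-DOX replicate 3 (−24.6) from its own (43 and 32.6). Results that rest on these 2 libraries are given with and without them. Scaling on the ribosomal protein genes moved the median fold change over all genes, on the log2 scale, by −1.64 for CFZ-DOX, −0.87 for DOX and −0.10 for CFZ against DMSO, by −1.54 for CFZ-DOX against CFZ, by −0.77 for CFZ-DOX against DOX, and by −0.68 for the interaction described below. Upper quartile scaling moved it by 0.50, 0.38, −0.05, 0.54, 0.12 and 0.17 in the same order, and library size scaling by −0.35, −0.12, −0.09, −0.26, −0.22 and −0.14. A direction is therefore given below with any of the 5 scalings in which it turned. Which scaling is nearest to RNA per cell was not tested.

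Carfilzomib alone raised most of the 10 transcripts, and doxorubicin, alone or with carfilzomib, left several of them below DMSO. With carfilzomib alone, Atf3, Ppp1r15a, Ddit3, Sesn2, Chac1, Ddit4 and Trib3 rose, Atf5 fell, and Atf4 and Asns did not pass the test. With doxorubicin alone, Trib3, Atf4, Chac1, Ddit4 and Sesn2 fell and Atf3 rose. With both drugs, Trib3, Chac1, Atf4 and Sesn2 were again below DMSO, while Ppp1r15a, Atf3 and Ddit3 were above it (Ddit3 turned to −0.49 on the log2 scale with ribosomal protein gene scaling). None of these 3 rises was called under all 5 scalings. The calls of Trib3 with carfilzomib alone and of Atf3 with doxorubicin alone were lost when certain single libraries were left out. In bulk RNA, fewer cells of a kind and less of a transcript per cell cannot be told apart. A gene was called when its adjusted p in edgeR's quasi-likelihood test over all 16648 genes was under 0.05.

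Against DMSO, CFZ-DOX had 3 transcripts called higher and 4 lower, where 39.3% of all genes tested were called higher and 35.7% lower. Their median log2 fold change was −0.17, beside 0.09 for all genes. DOX had 1 called higher and 5 lower, where 36.1% and 31.3% of all genes were, with medians of −0.88 for the 10 transcripts and 0.14 for all genes. CFZ had 7 called higher and 1 lower, where 14.4% of all genes were called higher and 14.4% lower, with medians of 1.28 and −0.01. With carfilzomib alone the share of transcripts called higher lay far above that of all genes, whereas with CFZ-DOX the shares in both directions lay close to it. These 3 comparisons share the DMSO libraries, and the 10 transcripts were chosen with earlier results of these data known.

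**Figure D1:**
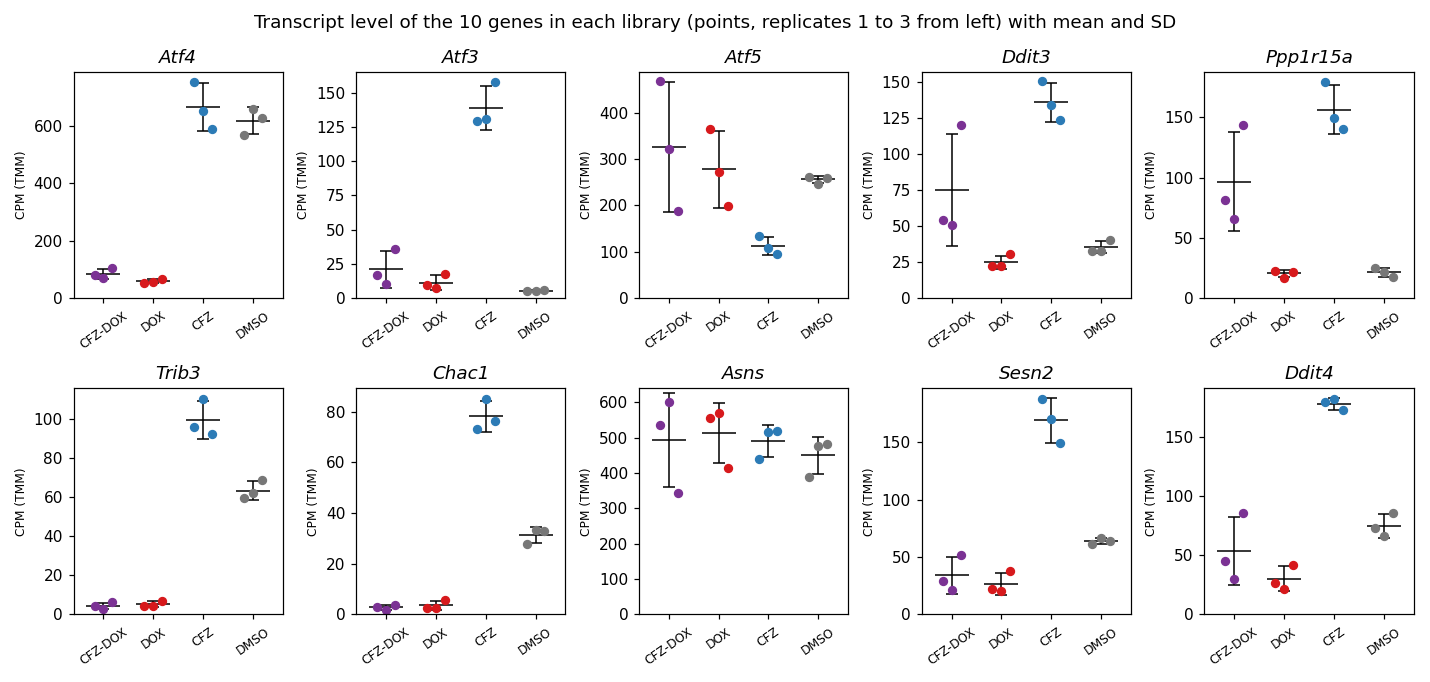
Level of each of the 10 transcripts (TMM-normalised CPM, linear axes from 0) in the 12 libraries, with groups in the order CFZ-DOX, DOX, CFZ and DMSO. Points are libraries, and bars give the mean and SD of 3. Atf4, Trib3 and Chac1 are low in all 6 libraries with doxorubicin, and Atf3, Ddit3, Ppp1r15a, Sesn2 and Ddit4 are highest on average in CFZ.

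Atf4 (ENSMUSG00000042406, chromosome 15, 80139385 to 80141742, plus strand, GRCm39 as in the deposited table, like all gene positions from here on) encodes the central transcription factor of the response. It had 79.4, 69.9 and 105 CPM in CFZ-DOX, 53.7, 57.0 and 67.9 CPM in DOX, 753, 654 and 589.5 CPM in CFZ and 568, 659.9 and 627 CPM in DMSO. All 6 libraries with doxorubicin lay below all 6 without it, and the CFZ and DMSO libraries overlapped. Atf4 fell to 84.7 ± 18.05 CPM in CFZ-DOX, against 618 ± 46.6 CPM in DMSO (log2 fold change −2.87 with SE 0.18 in edgeR, adjusted p = 1.13e-08), which is 7.30-fold lower (means ± SD, n = 3, here and below). It fell to 59.5 ± 7.41 CPM in DOX (log2 fold change −3.38 with SE 0.19 in edgeR, adjusted p = 1.03e-08), 10.4-fold lower, and only 73 of the 16648 genes had a lower fold change. Both decreases were called under all 5 scalings. In CFZ it averaged 665 ± 82.6 CPM, which did not pass the test against DMSO (log2 fold change 0.11 with SE 0.17 in edgeR, adjusted p = 0.692). CFZ-DOX was above DOX with no overlap of the libraries (log2 fold change 0.51 with SE 0.17 in edgeR, adjusted p = 0.0446), but that call turned to −0.27 with ribosomal protein gene scaling, and it was lost when any 1 library other than CFZ-DOX replicate 2 or DOX replicate 3 was left out (log2 fold changes 0.33 to 0.63 over all 12 omissions, the lowest without CFZ-DOX replicate 3).

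Atf3 (ENSMUSG00000026628, chromosome 1, 190902493 to 190950236, minus strand) encodes a stress-induced factor that can repress as well as activate. It had 16.7, 10.2 and 36.1 CPM in CFZ-DOX, 9.34, 7.58 and 17.3 CPM in DOX, 129, 130.5 and 158 CPM in CFZ and 5.51, 5.24 and 5.87 CPM in DMSO. The 3 CFZ libraries were far above all others, the DMSO libraries were the lowest, and the libraries of CFZ-DOX and DOX overlapped between these. Atf3 rose to 139 ± 15.99 CPM in CFZ, against 5.54 ± 0.318 CPM in DMSO (log2 fold change 4.65 with SE 0.41 in edgeR, adjusted p = 2.95e-06), and 17 genes had a higher fold change. With both drugs it rose less (log2 fold change 1.93 with SE 0.38 in edgeR, adjusted p = 0.000319), and that value became 0.35 (adjusted p = 0.517) with ribosomal protein gene scaling and 1.23 without both replicate 3 libraries with doxorubicin. DOX was above DMSO by a small margin (log2 fold change 1.05 with SE 0.37 in edgeR, adjusted p = 0.0221). This call was lost without DOX replicate 3 (log2 fold change 0.71, edgeR adjusted p = 0.129), without any 1 DMSO library (adjusted p = 0.05005 to 0.0665), and with library size or ribosomal protein gene scaling (adjusted p = 0.0995 and 0.669). Without both replicate 3 libraries with doxorubicin it was 0.58 (adjusted p = 0.01).

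Atf5 (ENSMUSG00000038539, chromosome 7, 44461680 to 44466082, minus strand) encodes a factor related to ATF4 that is also controlled by translation. Its levels were 469, 321 and 188 CPM in CFZ-DOX, 364, 273 and 198 CPM in DOX, 134, 108 and 94.6 CPM in CFZ and 261, 247 and 259.7 CPM in DMSO. It was the only one of the 10 that was lower in all 3 CFZ libraries than in all 3 DMSO libraries, and with doxorubicin its replicates spread widely in both groups, with replicate 3 the lowest. Atf5 fell to 112 ± 19.8 CPM in CFZ, against 256 ± 8.02 CPM in DMSO (log2 fold change −1.19 with SE 0.28 in edgeR, adjusted p = 0.00529), under all 5 scalings. CFZ-DOX, at 326 ± 141 CPM, was above CFZ (log2 fold change 1.54 with SE 0.28 in edgeR, adjusted p = 0.000165), a direction that turned to −0.082 with ribosomal protein gene scaling. Neither CFZ-DOX (log2 fold change 0.35 with SE 0.27 in edgeR, adjusted p = 0.261) nor DOX (log2 fold change 0.12 with SE 0.27 in edgeR, adjusted p = 0.711) passed the test against DMSO, although CFZ-DOX did without its replicate 3 (log2 fold change 0.62, adjusted p = 0.0183). Atf5 shares 82 exon bases with Nup62, a nuclear pore gene on the opposite strand, and the strand setting of the counting is not given in the sources used here. Nup62 averaged 15.1 ± 7.15 CPM in CFZ-DOX, 14.95 ± 5.88 CPM in DOX, 87.7 ± 6.202 CPM in CFZ and 127 ± 7.20 CPM in DMSO, so it was lowest with doxorubicin, where Atf5 was not. Its part in the Atf5 counts was not tested.

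Ddit3 (ENSMUSG00000025408, chromosome 10, 127126643 to 127132157, plus strand) encodes CHOP, the factor tied to cell death under prolonged stress. It had 54.3, 50.6 and 120.3 CPM in CFZ-DOX, 22.3, 22.3 and 30.4 CPM in DOX, 151, 134 and 124 CPM in CFZ and 33.0, 32.8 and 40.2 CPM in DMSO. The groups did not overlap and stood in the order CFZ, CFZ-DOX, DMSO and DOX from high to low, with CFZ-DOX replicate 3 near the CFZ libraries. Ddit3 rose to 136 ± 13.6 CPM in CFZ, against 35.3 ± 4.23 CPM in DMSO (log2 fold change 1.95 with SE 0.27 in edgeR, adjusted p = 0.000113), under all 5 scalings. It rose in CFZ-DOX (log2 fold change 1.09 with SE 0.26 in edgeR, adjusted p = 0.00177), but that value was 0.57 without CFZ-DOX replicate 3 and −0.49 (adjusted p = 0.239) with ribosomal protein gene scaling, and the call was lost with library size scaling (adjusted p = 0.0628). DOX averaged 25.0 ± 4.64 CPM, which did not pass the test against DMSO (log2 fold change −0.50 with SE 0.26 in edgeR, adjusted p = 0.107) although no libraries overlapped. With the replicate number as a block it did (log2 fold change −0.51, edgeR adjusted p = 0.0355), and also without CFZ-DOX replicate 3 (adjusted p = 0.00514). CFZ-DOX exceeded DOX (log2 fold change 1.59 with SE 0.27 in edgeR, adjusted p = 0.00134) and was below CFZ (log2 fold change −0.86 with SE 0.26 in edgeR, adjusted p = 0.00797). The difference from CFZ was −1.38 without CFZ-DOX replicate 3 and was lost with upper quartile scaling (adjusted p = 0.237), and that from DOX was lost with ribosomal protein gene scaling (adjusted p = 0.0715). Ddit3 shares 68 exon bases with Mars on the opposite strand, which averaged 106 to 120 CPM in the 4 groups.

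The 2 feedback genes took different courses under doxorubicin. Ppp1r15a (ENSMUSG00000040435, chromosome 7, 45172340 to 45175692, minus strand) encodes GADD34, and it had 81.1, 65.2 and 143 CPM in CFZ-DOX, 22.6, 17.1 and 21.95 CPM in DOX, 179, 149 and 140.1 CPM in CFZ and 25.4, 21.4 and 17.2 CPM in DMSO. Every library with carfilzomib was above every library without it, with or without doxorubicin, and the DOX and DMSO libraries overlapped. Ppp1r15a rose to 156 ± 20.6 CPM in CFZ, against 21.3 ± 4.09 CPM in DMSO (log2 fold change 2.87 with SE 0.26 in edgeR, adjusted p = 3.14e-06). It rose to 96.5 ± 41.2 CPM in CFZ-DOX, against 20.5 ± 2.98 CPM in DOX (log2 fold change 2.23 with SE 0.25 in edgeR, adjusted p = 9.26e-05), and 62 genes had a higher fold change. Both of these calls held under all 5 scalings, whereas CFZ-DOX against DMSO (log2 fold change 2.18 with SE 0.25 in edgeR, adjusted p = 2.43e-06) was lost with ribosomal protein gene scaling (0.58, adjusted p = 0.122). CFZ-DOX was below CFZ (log2 fold change −0.69 with SE 0.24 in edgeR, adjusted p = 0.0162), but the libraries overlapped. That call was lost without CFZ-DOX replicate 1, CFZ-DOX replicate 2 or CFZ replicate 1 (adjusted p = 0.0554, 0.0683 and 0.0523), with upper quartile scaling (adjusted p = 0.52), with a minimum count of 50 (adjusted p = 0.103) and with only the libraries compared (adjusted p = 0.0796), and its value was −1.10 without CFZ-DOX replicate 3. DOX against DMSO did not pass (log2 fold change −0.054 with SE 0.24 in edgeR, adjusted p = 0.853).

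Trib3 (ENSMUSG00000032715, chromosome 2, 152179342 to 152185952, minus strand) encodes a pseudokinase that binds ATF4 and lowers its activity. It had 4.13, 2.83 and 6.15 CPM in CFZ-DOX, 4.44, 4.52 and 6.96 CPM in DOX, 96.1, 111 and 92.6 CPM in CFZ and 59.5, 62.1 and 69.0 CPM in DMSO. The 6 libraries with doxorubicin lay about an order of magnitude below the others, those of CFZ-DOX and DOX overlapped, and the CFZ libraries were above the DMSO libraries. Trib3 fell to 4.37 ± 1.67 CPM in CFZ-DOX and 5.31 ± 1.43 CPM in DOX, against 63.5 ± 4.88 CPM in DMSO. That was 14.5-fold lower in CFZ-DOX (log2 fold change −3.85 with SE 0.25 in edgeR, adjusted p = 1.4e-08) and 11.9-fold lower in DOX (log2 fold change −3.58 with SE 0.24 in edgeR, adjusted p = 4.18e-08). Against CFZ, at 99.8 ± 9.58 CPM, CFZ-DOX was 22.7-fold lower (log2 fold change −4.51 with SE 0.26 in edgeR, adjusted p = 4.78e-09). These 3 calls held under all 5 scalings. The rise in CFZ was small (log2 fold change 0.65 with SE 0.22 in edgeR, adjusted p = 0.0367), and it was lost when any 1 of the 6 CFZ and DMSO libraries was left out (adjusted p = 0.0651 to 0.123) and with library size or ribosomal protein gene scaling (adjusted p = 0.232 and 0.237). CFZ-DOX against DOX did not pass (log2 fold change −0.28 with SE 0.24 in edgeR, adjusted p = 0.429), although without CFZ-DOX replicate 3 it did (log2 fold change −0.61, edgeR adjusted p = 0.0496).

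The amino acid and redox targets went separate ways. Asns (ENSMUSG00000029752, chromosome 6, 7675169 to 7693254, minus strand) encodes asparagine synthetase, and it had 535, 599.6 and 344 CPM in CFZ-DOX, 555, 569.7 and 414 CPM in DOX, 439, 515 and 519.9 CPM in CFZ and 389.9, 477 and 482 CPM in DMSO. Libraries of all 4 groups overlapped, and replicate 3 was the lowest in both groups with doxorubicin. Asns averaged 493 ± 133 CPM in CFZ-DOX, 513 ± 86.1 CPM in DOX, 491 ± 45.3 CPM in CFZ and 449.6 ± 51.7 CPM in DMSO, and it passed no test with TMM scaling (adjusted p between 0.411 and 0.986 over the 5 comparisons in edgeR). Its direction turned with the scaling in 4 of them. Ribosomal protein gene scaling called it lower in CFZ-DOX (−1.53, adjusted p = 3.91e-07) and DOX (−0.70, adjusted p = 0.000645) against DMSO. Upper quartile scaling called it higher in CFZ-DOX (0.64, adjusted p = 0.0158) and DOX (0.57, adjusted p = 0.0302) against DMSO and in CFZ-DOX against CFZ (0.56, adjusted p = 0.0301). Without both replicate 3 libraries with doxorubicin it was called higher against DMSO in CFZ-DOX (0.28, adjusted p = 0.0326) and DOX (0.29, adjusted p = 0.0307).

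Chac1 (ENSMUSG00000027313, chromosome 2, 119181710 to 119184862, plus strand) encodes an enzyme that breaks down glutathione, and it is a target of the ATF4 and CHOP branch. It had 3.09, 1.70 and 3.599 CPM in CFZ-DOX, 2.63, 2.45 and 5.77 CPM in DOX, 73.3, 85.1 and 76.2 CPM in CFZ and 27.8, 33.5 and 33.0 CPM in DMSO. The groups with doxorubicin overlapped near the bottom, with 42 to 219 counts per library, and the CFZ libraries were all above the DMSO libraries. Chac1 rose to 78.2 ± 6.15 CPM in CFZ, against 31.4 ± 3.15 CPM in DMSO (log2 fold change 1.32 with SE 0.28 in edgeR, adjusted p = 0.00268). It fell to 2.80 ± 0.983 CPM in CFZ-DOX, 11.2-fold below DMSO (log2 fold change −3.48 with SE 0.31 in edgeR, adjusted p = 2.41e-07), and to 3.61 ± 1.87 CPM in DOX, 8.65-fold below it (log2 fold change −3.11 with SE 0.30 in edgeR, adjusted p = 8.39e-07). Against CFZ, CFZ-DOX was 27.8-fold lower (log2 fold change −4.80 with SE 0.33 in edgeR, adjusted p = 1.89e-08), and 14 of all genes had a lower fold change. All 4 calls held under all 5 scalings.

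Sesn2 and Ddit4 encode 2 stress-induced inhibitors of the growth kinase mTORC1, and both are also known as p53 targets. Sesn2 (ENSMUSG00000028893, chromosome 4, 132219343 to 132237812, minus strand) had 28.8, 21.5 and 51.7 CPM in CFZ-DOX, 21.9, 20.02 and 37.8 CPM in DOX, 188, 170.5 and 149 CPM in CFZ and 61.7, 66.2 and 64.4 CPM in DMSO. Ddit4, also called Redd1 (ENSMUSG00000020108, chromosome 10, 59785491 to 59787656, minus strand), had 45.5, 30.2 and 85.8 CPM in CFZ-DOX, 26.7, 21.6 and 41.8 CPM in DOX, 179.8, 182 and 172 CPM in CFZ and 73.1, 66.1 and 85.9 CPM in DMSO. For both, the CFZ libraries were above all others with no overlap, and CFZ-DOX replicate 3 and DOX replicate 3 were the highest of their groups. Sesn2 rose to 169 ± 19.4 CPM in CFZ, against 64.1 ± 2.30 CPM in DMSO (log2 fold change 1.40 with SE 0.28 in edgeR, adjusted p = 0.00183), under all 5 scalings. It fell to 34.0 ± 15.8 CPM in CFZ-DOX (log2 fold change −0.91 with SE 0.28 in edgeR, adjusted p = 0.008) and 26.6 ± 9.77 CPM in DOX (log2 fold change −1.27 with SE 0.28 in edgeR, adjusted p = 0.00107). Its decrease in CFZ-DOX was −1.41 without both replicate 3 libraries with doxorubicin and was lost with upper quartile scaling (adjusted p = 0.139). Ddit4 rose to 178 ± 4.95 CPM in CFZ, against 75.0 ± 10.1 CPM in DMSO (log2 fold change 1.25 with SE 0.30 in edgeR, adjusted p = 0.00656), a call lost with library size or ribosomal protein gene scaling (adjusted p = 0.059 and 0.06). It fell to 30.04 ± 10.5 CPM in DOX (log2 fold change −1.32 with SE 0.30 in edgeR, adjusted p = 0.00152). CFZ-DOX, at 53.8 ± 28.7 CPM, did not pass against DMSO (log2 fold change −0.48 with SE 0.30 in edgeR, adjusted p = 0.16), although without its replicate 3 it did (log2 fold change −0.99, edgeR adjusted p = 0.00162).

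Adding doxorubicin to carfilzomib lowered most of the transcripts that carfilzomib alone had raised. Both comparisons share the CFZ libraries, so values that are high there by chance push them in opposite directions. Of the 10, 8 were called lower in CFZ-DOX than in CFZ and 1, Atf5, higher (Atf5 turned to −0.082 with ribosomal protein gene scaling), where 36.9% of all genes tested were called lower and 40.4% higher. The median log2 fold change was −2.02 for the 10 and 0.09 for all genes. After the Chac1 and Trib3 decreases, those of Atf4 (log2 fold change −2.97 with SE 0.18 in edgeR, adjusted p = 8e-09), Atf3 (log2 fold change −2.72 with SE 0.38 in edgeR, adjusted p = 1.25e-05), Sesn2 (log2 fold change −2.31 with SE 0.29, adjusted p = 4.56e-06) and Ddit4 (log2 fold change −1.72 with SE 0.31, adjusted p = 0.00013) followed, and all 6 were called under all 5 scalings. Asns was the transcript that passed in neither direction (log2 fold change 0.0043 with SE 0.20 in edgeR, adjusted p = 0.986).

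Adding carfilzomib to doxorubicin moved fewer of the transcripts than adding doxorubicin to carfilzomib did, and fewer of all genes too. In CFZ-DOX against DOX, 3 were called higher and 0 lower, where 10.3% and 12% of all genes were, with medians of 0.43 and 0.03. These were Ppp1r15a, Ddit3 and, less firmly, Atf4 (Atf4 turned to −0.27 with ribosomal protein gene scaling). Ppp1r15a alone of the 3 was called under all 5 scalings. No transcript was called lower by edgeR, limma-voom or DESeq2, and at an unadjusted p under 0.05 edgeR's number was 0, but 4 were with ribosomal protein gene scaling, and Trib3 was without CFZ-DOX replicate 3. Same-numbered libraries of CFZ-DOX and DOX deviated together, and once the replicate number entered as a block, Atf3 (log2 fold change 0.83, edgeR adjusted p = 0.0146) and Ddit4 (log2 fold change 0.80, adjusted p = 0.00953) passed too, which they did not without it (adjusted p = 0.0935 and 0.0585). Atf3 also passed without CFZ-DOX replicate 2 (adjusted p = 0.0216) or DOX replicate 3 (adjusted p = 0.0481), and Ddit4 likewise (adjusted p = 0.0133 and 0.0323). Without CFZ-DOX replicate 3 the log2 fold changes were 0.24 for Atf3 (adjusted p = 0.569) and 0.33 for Ddit4 (adjusted p = 0.303).

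**Figure D2:**
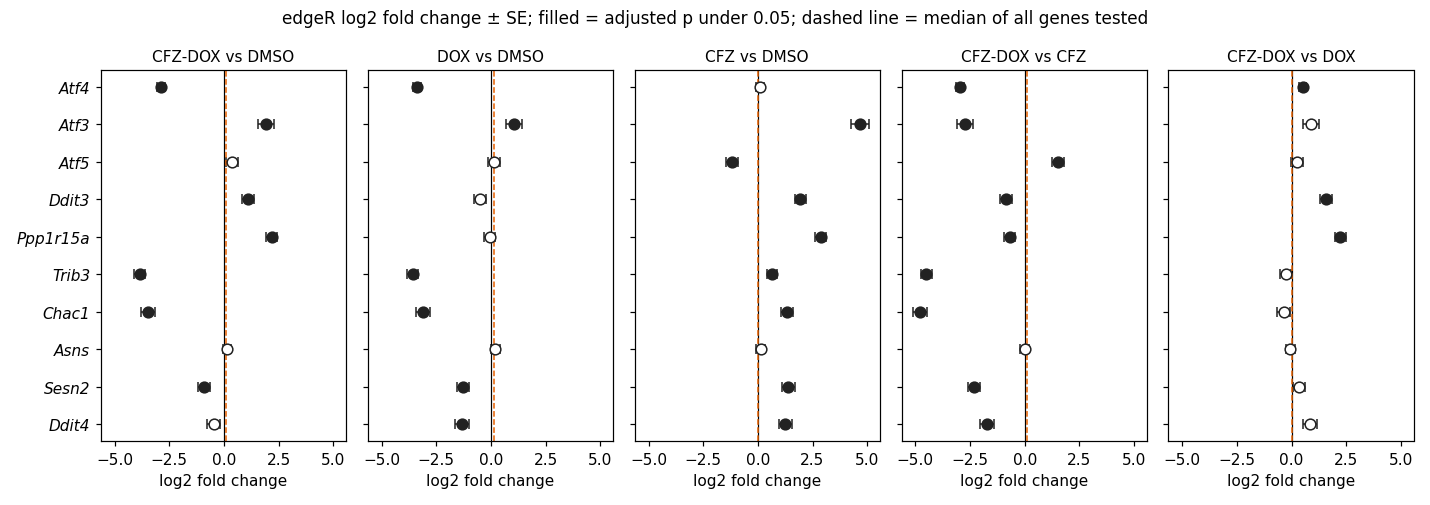
The edgeR log2 fold change of each of the 10 transcripts (x axis, bars are ± SE) in the 5 comparisons, with filled points for an adjusted p under 0.05 and a dashed line at the median of all genes tested. Points lie mostly right of 0 for CFZ vs DMSO and left of 0 for CFZ-DOX vs CFZ. With ribosomal protein gene scaling the called points of Ddit3 in CFZ-DOX vs DMSO, Atf5 in CFZ-DOX vs CFZ and Atf4 in CFZ-DOX vs DOX change side.

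Whether the effect of carfilzomib depended on doxorubicin was tested as an interaction, the log2 fold change of CFZ-DOX over DOX minus that of CFZ over DMSO. Of the 10, 2 were called lower and 1 higher, where 11.2% of all genes were called lower and 8.46% higher. The medians were −0.52 and 0.04. For Atf3, carfilzomib gave a log2 fold change of 0.88 with doxorubicin and 4.65 without it (edgeR log2 difference −3.77, SE 0.53, adjusted p = 0.000383). For Chac1 the values were −0.37 with doxorubicin and 1.32 without it (edgeR log2 difference −1.68, SE 0.41, adjusted p = 0.0118). Atf3 and Chac1 were called under all 5 scalings. Atf5 went the other way, with 0.23 with doxorubicin and −1.19 without it (edgeR log2 difference 1.42, SE 0.39, adjusted p = 0.0204), and its call was lost without CFZ-DOX replicate 1 (adjusted p = 0.051), without CFZ replicate 3 (adjusted p = 0.0645) and with ribosomal protein gene scaling (adjusted p = 0.0746). Ppp1r15a, which rose with carfilzomib in both settings, had a log2 difference of −0.64 (SE 0.34, edgeR adjusted p = 0.197). That of Ddit3 was −0.36 (SE 0.37, adjusted p = 0.524), and a p above the threshold does not show that these effects were equal. Without CFZ-DOX replicate 3, 7 transcripts were called lower, adding Ddit3, Ppp1r15a, Trib3, Sesn2 and Ddit4 to Atf3 and Chac1, and without both replicate 3 libraries with doxorubicin 6 were called lower. With the replicate number as a block, 4 were called lower, adding Trib3 (−0.95, adjusted p = 0.0166) and Sesn2 (−1.07, adjusted p = 0.0193), which did not pass without it (adjusted p = 0.0572 and 0.0729).

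**Figure D3:**
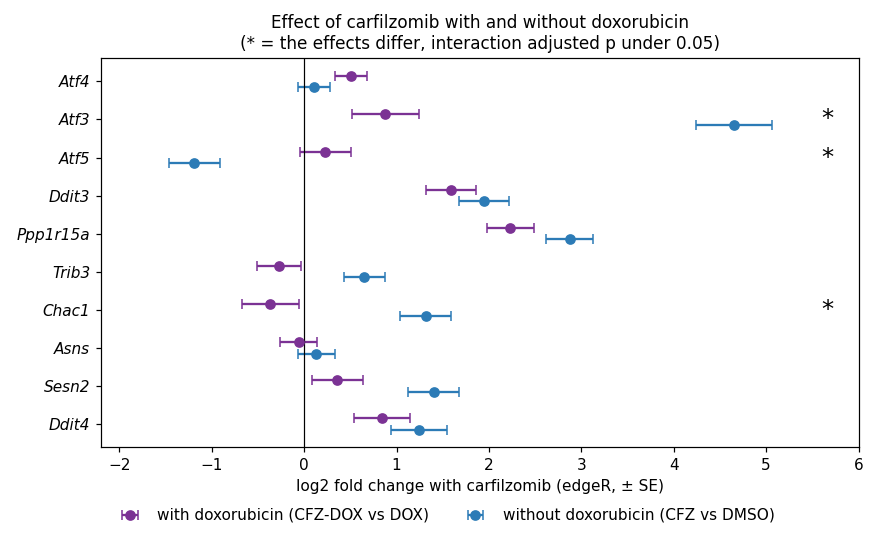
Log2 fold change with carfilzomib (edgeR, ± SE) in the presence of doxorubicin (CFZ-DOX vs DOX) and in its absence (CFZ vs DMSO), 1 row per transcript, with a star where the interaction passed. The pair of points lies farthest apart for Atf3 (0.88 with and 4.65 without doxorubicin).

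Levels per kilobase of exon (CPM per kb) allow the transcripts to be ranked within a group. In CFZ-DOX, Asns (180.2 ± 48.7 CPM per kb) and Atf5 (163 ± 70.6 CPM per kb) were the most abundant, and Atf4 followed Ddit3 at 35.9 ± 7.65 CPM per kb. The order in DOX began with Asns (188 ± 31.5 CPM per kb), Atf5 (139.5 ± 41.6 CPM per kb) and Atf4 (25.2 ± 3.14 CPM per kb). Atf4 led in CFZ with 282 ± 35.02 CPM per kb and in DMSO with 262 ± 19.7 CPM per kb, ahead of Asns with 179.6 ± 16.6 CPM per kb in CFZ and 164 ± 18.9 CPM per kb in DMSO. Asns and Atf5 in CFZ-DOX did not differ beyond their spread. The least abundant were Chac1 in CFZ-DOX (1.71 ± 0.600 CPM per kb) and DOX (2.21 ± 1.14 CPM per kb), Trib3 in CFZ (47.0 ± 4.51 CPM per kb) and Atf3 in DMSO (2.57 ± 0.148 CPM per kb). Trib3 in CFZ did not differ beyond the spread from Chac1 (47.8 ± 3.75 CPM per kb) and Sesn2 (48.7 ± 5.58 CPM per kb), nor Chac1 from Trib3 in CFZ-DOX (2.06 ± 0.785 CPM per kb) and DOX (2.50 ± 0.673 CPM per kb). Together the 10 transcripts made up 0.0957 to 0.113% of all reads counted per library in CFZ-DOX, 0.0951 to 0.0991% in DOX, 0.222 to 0.239% in CFZ and 0.166 to 0.190% in DMSO.

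The level of a transcript divided by that of Atf4 in the same library, both per kb, does not depend on the scaling between libraries. Atf4 itself was far lower in both groups with doxorubicin, so a ratio to it can rise there while the transcript's own level falls. That ratio was 0.749 to 1.10 in CFZ-DOX, 0.241 to 0.337 in DOX, 0.183 to 0.191 in CFZ and 0.0220 to 0.0358 in DMSO for Ppp1r15a. The ranges of the 4 groups did not overlap, and the order from high to low was CFZ-DOX, DOX, CFZ and DMSO. Ddit3 had ratios of 0.942 to 1.58 in CFZ-DOX, 0.540 to 0.616 in DOX, 0.275 to 0.289 in CFZ and 0.0683 to 0.0883 in DMSO, in the same order without overlap. Atf3, a factor that ATF4 activates, had ratios of 0.160 to 0.377 in CFZ-DOX, 0.146 to 0.280 in DOX, 0.188 to 0.293 in CFZ and 0.00868 to 0.0106 in DMSO. The DMSO range lay far below the 3 overlapping ranges of the drug groups, so Atf3 was higher relative to Atf4 with doxorubicin as well as with carfilzomib. Trib3 and Chac1, by contrast, had their highest ratios in CFZ. Trib3 ratios were 0.0450 to 0.0651 in CFZ-DOX, 0.0881 to 0.114 in DOX, 0.142 to 0.188 in CFZ and 0.104 to 0.122 in DMSO, lowest in CFZ-DOX and highest in CFZ with no overlap with the ranges of DOX and DMSO. Chac1 ratios were 0.0350 to 0.0561 in CFZ-DOX, 0.0618 to 0.122 in DOX, 0.140 to 0.188 in CFZ and 0.0704 to 0.0757 in DMSO. Sesn2 had ratios of 0.208 to 0.335 in CFZ-DOX, 0.238 to 0.378 in DOX, 0.169 to 0.177 in CFZ and 0.0681 to 0.0737 in DMSO, and Ddit4 of 0.580 to 1.10 in CFZ-DOX, 0.510 to 0.827 in DOX, 0.321 to 0.393 in CFZ and 0.135 to 0.184 in DMSO, in both cases lowest in DMSO. For Atf5 they were 2.12 to 6.99 in CFZ-DOX, 3.45 to 8.01 in DOX, 0.190 to 0.210 in CFZ and 0.442 to 0.544 in DMSO, so Atf5 passed Atf4 in every library with doxorubicin and in none without it.

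**Figure D4:**
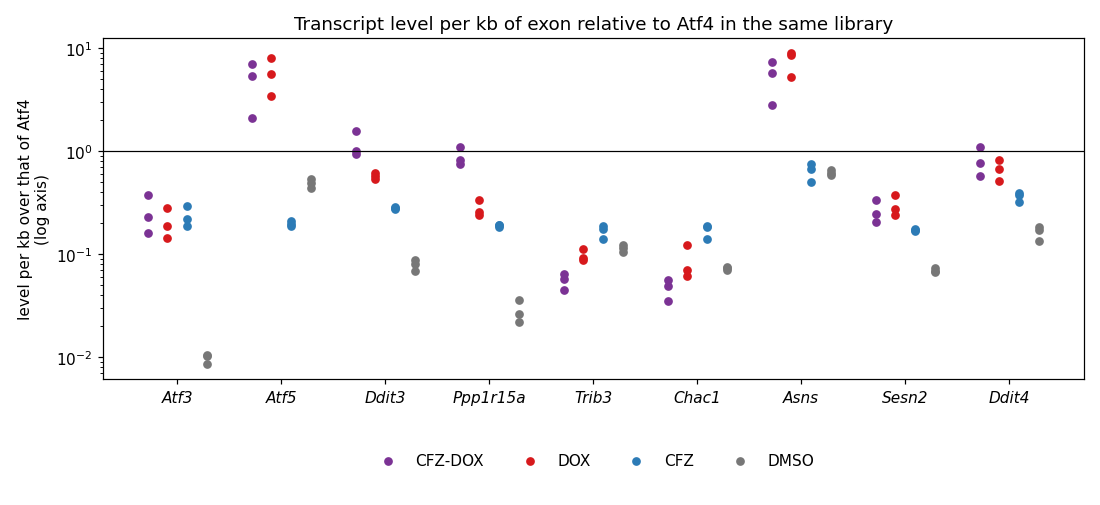
Level per kb of 9 transcripts relative to Atf4 in the same library (log axis), with the 4 groups side by side in the order CFZ-DOX, DOX, CFZ and DMSO and 1 point per library. Asns and Atf5 lie above 1 in all 6 libraries with doxorubicin and below 1 in all 6 without it. The level of Atf4 itself was lower in all 6 libraries with doxorubicin.

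For each transcript the 3 genes nearest in pattern were found among 9419 genes that averaged 5 CPM or more, by the root mean square difference of centred log2 CPM over the 12 libraries. Smaller values mean more alike, and the libraries of a group share its treatment. Trib3 and Chac1 were each nearest to the other, at 0.29 on the log2 scale, and the next for both was Klf2, a Krüppel-like transcription factor, with 2.27 CPM in CFZ-DOX, 3.06 in DOX, 35.3 in CFZ and 27.9 in DMSO. Nearest to Atf4 was Klf6, another such factor, at 0.14, with mean levels of 22.3 CPM in CFZ-DOX, 15.5 in DOX, 208 in CFZ and 178 in DMSO. The nearest gene to Atf3 was much farther from it, Calr3 at 0.51, followed by Zfand2a and Napb. Ppp1r15a was nearest to Ddit3 (0.49), then to the heat shock gene Hspa1a (0.50), with 11.9 CPM in CFZ-DOX, 1.09 in DOX, 15.7 in CFZ and 1.84 in DMSO, and to Dnaja4, a co-chaperone gene that was also second for Ddit3, after Hgs. Sesn2 was nearest to Ccdc186 (0.16), Ddit4 to Vipas39 (0.19) and Lins1, and Ddit4 had Sesn2 next (0.24). Atf5 was nearest to Tmem260 (0.12), and Asns to the purine synthesis gene Atic at 0.077, with levels that hardly varied between groups.

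A further list of 56 genes around the pathway, from eIF2 kinases to transporters, held 55 that could be tested, and Fgf21 was under the filter on low counts. In CFZ-DOX against DMSO 14 of the 55 were called higher and 22 lower, in DOX against DMSO 13 and 16, and in CFZ against DMSO 17 and 5. The shares of all genes called are given above. The median log2 fold changes of the list were −0.09, −0.08 and 0.30, beside 0.09, 0.14 and −0.01 for all genes. Called under all 5 scalings were 1 higher and 15 lower in CFZ-DOX, 2 and 12 in DOX, and 13 and 4 in CFZ. In CFZ-DOX against CFZ, 9 were higher and 31 lower, with a median of −0.56 beside 0.09 for all genes.

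Of the 4 eIF2 kinases, Eif2ak2 (PKR) had 21.1 ± 4.50 CPM in CFZ-DOX, 20.1 ± 1.90 in DOX, 65.2 ± 7.99 in CFZ and 43.0 ± 5.30 in DMSO. It fell in CFZ-DOX against DMSO (log2 fold change −1.03 with SE 0.17 in edgeR, adjusted p = 8.46e-05). Eif2ak1 (HRI, which responds to haem shortage and mitochondrial stress) had 28.5 ± 5.28 CPM in CFZ-DOX, 37.2 ± 1.11 in DOX, 68.4 ± 2.32 in CFZ and 53.5 ± 0.656 in DMSO, and it also fell in CFZ-DOX (log2 fold change −0.91 with SE 0.13 in edgeR, adjusted p = 2.3e-05). Eif2ak3 (PERK, the kinase of the endoplasmic reticulum) averaged 43.3 CPM in CFZ-DOX, 44.0 in DOX, 36.0 in CFZ and 33.3 in DMSO. Its averages by TMM were thus higher in both groups with doxorubicin than in CFZ and DMSO. Ribosomal protein gene scaling moved the median of all genes by more than these differences from DMSO (log2 scale, −1.64 for CFZ-DOX and −0.87 for DOX). Of 7 kinases and regulators in the list, 1 was called higher and 3 lower in CFZ-DOX against DMSO, and 1 and 2 in DOX. The shares of all genes tested were 39.3% higher and 35.7% lower in CFZ-DOX, and 36.1% and 31.3% in DOX. Under all 5 scalings the counts of the 7 were 0 and 2 in CFZ-DOX and 0 and 1 in DOX. In DOX, Eif2ak3 was the only one of the 7 with an average above DMSO by TMM. Eif2ak4 (GCN2, the sensor of uncharged tRNA) stayed between 30.3 CPM in DOX and 34.2 CPM in CFZ. Impact, whose product inhibits the GCN1 and GCN2 step, rose in CFZ against DMSO (log2 fold change 2.23 with SE 0.15 in edgeR, adjusted p = 3.79e-07) and had a lower response to carfilzomib with doxorubicin than without it (edgeR log2 difference −2.15, SE 0.21, adjusted p = 3.05e-05). Oma1, the mitochondrial protease of the HRI route, fell in CFZ (log2 fold change −0.82 with SE 0.23 in edgeR, adjusted p = 0.016), a call lost without CFZ replicate 2 or 3 or DMSO replicate 1 or 3 (adjusted p = 0.0509 to 0.0769) and with library size or ribosomal protein gene scaling. Of the eIF2 phosphatase subunits, Ppp1cc, a catalytic subunit, fell in CFZ (log2 fold change −0.85 with SE 0.17 in edgeR, adjusted p = 0.00193).

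Cebpb and Cebpg, which encode C/EBP partners of ATF4, were below DMSO in both groups with doxorubicin. Of 4 bZIP partner genes, 3 were called lower in CFZ-DOX (Cebpb, Cebpg and Jdp2, with 35.7% of all genes tested called lower) and 4 in DOX (with 31.3% of all genes) against DMSO, 3 of them in each under all 5 scalings. Cebpb had 0.715 ± 0.376 CPM in CFZ-DOX, 0.459 ± 0.173 in DOX, 17.7 ± 6.02 in CFZ and 15.4 ± 3.14 in DMSO, with all 6 libraries with doxorubicin near 0, and it fell in CFZ-DOX (log2 fold change −4.41 with SE 0.37 in edgeR, adjusted p = 1.09e-07) and DOX (log2 fold change −5.04 with SE 0.38 in edgeR, adjusted p = 8.43e-08) against DMSO. Cebpg, whose product pairs with ATF4, had 6.60 ± 2.86 CPM in CFZ-DOX, 9.90 ± 5.47 in DOX, 64.1 ± 6.48 in CFZ and 86.7 ± 5.53 in DMSO, and it fell in CFZ-DOX (log2 fold change −3.71 with SE 0.34 in edgeR, adjusted p = 3.13e-07) and DOX (log2 fold change −3.13 with SE 0.33 in edgeR, adjusted p = 1.8e-06). Cebpd had 14.1 ± 7.20 CPM in CFZ-DOX, 10.5 ± 3.81 in DOX, 6.74 ± 2.51 in CFZ and 23.1 ± 10.6 in DMSO. It did not pass in CFZ-DOX against DMSO (log2 fold change −0.71 with SE 0.38 in edgeR, adjusted p = 0.108), was called lower in CFZ against DMSO (log2 fold change −1.77 with SE 0.40 in edgeR, adjusted p = 0.00399), and was called higher in CFZ-DOX than in CFZ (log2 fold change 1.07 with SE 0.39 in edgeR, adjusted p = 0.0227), with overlapping libraries. That difference turned to −0.44 with ribosomal protein gene scaling and was called in 3 of the 5 scalings. Its carfilzomib effect was higher with doxorubicin (edgeR log2 difference 2.19, SE 0.55, adjusted p = 0.0134), a call lost with library size or ribosomal protein gene scaling (adjusted p = 0.0611 and 0.1252).

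Among transporters, Slc7a11, the cystine importer that feeds glutathione synthesis, gave the largest rise in CFZ among the genes of the list that averaged 5 CPM or more. It had 19.7 ± 2.55 CPM in CFZ-DOX, 19.5 ± 1.90 in DOX, 479.9 ± 33.5 in CFZ and 47.7 ± 7.61 in DMSO. It rose in CFZ against DMSO (log2 fold change 3.33 with SE 0.16 in edgeR, adjusted p = 2.19e-08), and with doxorubicin present the effect of carfilzomib was far smaller (edgeR log2 difference −3.31, SE 0.22, adjusted p = 2.07e-06). Against CFZ, CFZ-DOX was lower (log2 fold change −4.60 with SE 0.17 in edgeR, adjusted p = 1.11e-09). Gdf15, a secreted stress factor named here after its values were seen, had a larger fitted log2 fold change in CFZ against DMSO (log2 fold change 4.12 with SE 0.39 in edgeR, adjusted p = 5.52e-06) at very low levels, with 0.937 ± 0.0785 CPM in CFZ-DOX, 0.585 ± 0.00893 in DOX, 1.73 ± 0.642 in CFZ and 0.0992 ± 0.0493 in DMSO and 2 to 5 reads per DMSO library. Slc38a2, a carrier of neutral amino acids, was called higher in CFZ-DOX than DOX (log2 fold change 0.69 with SE 0.21 in edgeR, adjusted p = 0.0294) although libraries overlapped, it turned to −0.083 with ribosomal protein gene scaling, and its call was lost without CFZ-DOX replicate 3 (log2 fold change 0.39, adjusted p = 0.0867), DOX replicate 1 or DOX replicate 2. Of 9 amino acid and one-carbon enzymes, 5 were called higher in CFZ-DOX and 6 in DOX against DMSO, but 0 in each under all 5 scalings. Among all genes tested, 39.3% were called higher in CFZ-DOX and 36.1% in DOX. Pycr1, an enzyme of proline synthesis, was called higher in CFZ-DOX (log2 fold change 1.34 with SE 0.16 in edgeR, adjusted p = 3.6e-06), but turned to −0.33 with ribosomal protein gene scaling. It was called higher in DOX as well (log2 fold change 1.01 with SE 0.16 in edgeR, adjusted p = 7.19e-05). Phgdh, the first enzyme of serine synthesis, was above CFZ in CFZ-DOX (log2 fold change 1.49 with SE 0.17 in edgeR, adjusted p = 1.8e-06), turning to −0.059 with that scaling, as did Pycr1 (−0.34) and Ppp1ca, a phosphatase catalytic subunit (−0.35, against 1.22 by TMM). The carfilzomib effect on Phgdh was called higher with doxorubicin (edgeR log2 difference 0.77, SE 0.23, adjusted p = 0.0317), but not when any 1 of 8 libraries was left out (adjusted p = 0.0546 to 0.103), with no filter on low counts (adjusted p = 0.0592) or with ribosomal protein gene scaling (0.10, adjusted p = 0.645).

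The remaining named genes were other targets of ATF4 or CHOP and genes of tRNA charging. Herpud1, a gene of degradation at the endoplasmic reticulum, fell in CFZ-DOX (log2 fold change −2.84 with SE 0.22 in edgeR, adjusted p = 6.96e-08) and DOX (log2 fold change −2.77 with SE 0.22 in edgeR, adjusted p = 1.51e-07) against DMSO. Tnfrsf10b, which encodes a death receptor, rose in CFZ (log2 fold change 2.26 with SE 0.16 in edgeR, adjusted p = 3.9e-07), less in DOX (log2 fold change 0.91 with SE 0.15 in edgeR, adjusted p = 0.000116), and its carfilzomib effect was smaller with doxorubicin (edgeR log2 difference −2.22, SE 0.22, adjusted p = 3.05e-05). The rise in DOX was lost with ribosomal protein gene scaling (adjusted p = 0.824). Ero1a, an oxidase of the endoplasmic reticulum, was called higher in CFZ-DOX (log2 fold change 1.63 with SE 0.20 in edgeR, adjusted p = 4.25e-06) and DOX (log2 fold change 1.24 with SE 0.20 in edgeR, adjusted p = 7.92e-05), and Nupr1, a small stress-induced chromatin protein gene, in CFZ-DOX (log2 fold change 1.41 with SE 0.15 in edgeR, adjusted p = 1.32e-06). Both genes were also higher with carfilzomib alone, with no overlap of the libraries. Ero1a averaged 271 ± 23.3 CPM in CFZ and 142 ± 5.03 CPM in DMSO, and Nupr1 160 ± 19.9 and 63.8 ± 8.33 CPM. In CFZ-DOX, ribosomal protein gene scaling turned Ero1a to −0.046 and Nupr1 to −0.24. Nupr1 was also above DOX in CFZ-DOX (log2 fold change 0.73 with SE 0.15 in edgeR, adjusted p = 0.00433), turning to −0.034 with that scaling. The eIF2B subunit gene Eif2b4 was above DOX in CFZ-DOX as well (log2 fold change 0.87 with SE 0.15 in edgeR, adjusted p = 0.00174), a call lost with library size scaling (adjusted p = 0.0769) and with ribosomal protein gene scaling (0.10, adjusted p = 0.766). Lower in CFZ-DOX than DOX were Vldlr, a lipoprotein receptor gene (log2 fold change −1.45 with SE 0.20 in edgeR, adjusted p = 0.00038), Stc2, a secreted glycoprotein gene (log2 fold change −0.86 with SE 0.15 in edgeR, adjusted p = 0.00202), and Xpot, the exporter of tRNA (log2 fold change −0.61 with SE 0.13 in edgeR, adjusted p = 0.00431). In all, 6 of the 55 were called higher and 5 lower in that comparison, and 3 higher and 14 lower in the interaction, with medians of −0.02 and −0.35. Of all genes tested, 10.3% were called higher and 12% lower in CFZ-DOX against DOX, and 8.46% and 11.2% in the interaction. The medians of all genes were 0.03 and 0.04.

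**Figure D5:**
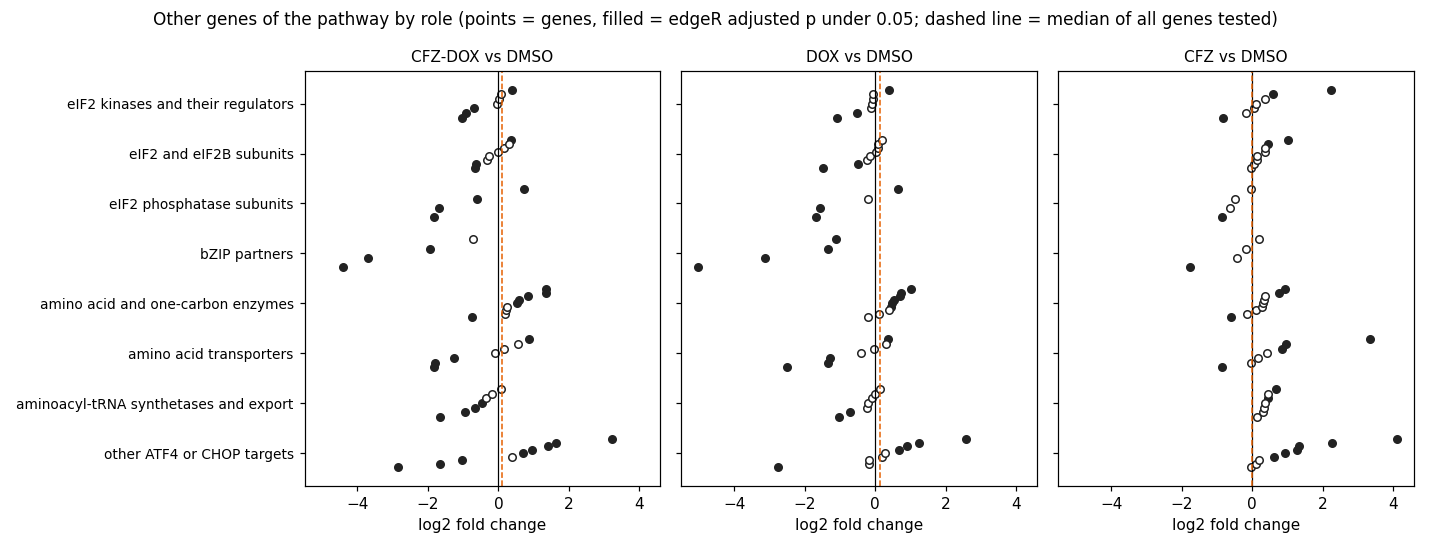
Log2 fold changes (edgeR) of the 55 other genes of the pathway, grouped by role on the vertical axis, in CFZ-DOX, DOX and CFZ against DMSO, with filled points for an adjusted p under 0.05 and a dashed line at the median of all genes tested. The bZIP partner genes Cebpb and Cebpg lie far to the left in both groups with doxorubicin, and Gdf15, with 2 to 5 reads per DMSO library, and Slc7a11 farthest to the right in CFZ. With ribosomal protein gene scaling, Ero1a, Nupr1 and Pycr1 move to the other side of 0 in CFZ-DOX.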

How the data were processed

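A single table of raw counts was deposited by the authors, with 1 column for each of 12 libraries and the GRCm39 coordinates and exon length of every Ensembl gene. The submitters' processing notes list Trimmomatic 0.39, STAR 2.7.9a, and Subread 2.0.2 with its featureCounts program. For the annotation release and the strand setting, which decide how reads of overlapping genes are shared, the notes used here give nothing. Groups and replicate numbers came from the sample titles. Symbols, used for names only, matched 52073 IDs (91.4%).

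The 10 transcripts, the other lists and the tests were chosen with earlier results of these data known. All 10 are named, and of the other 55 up to 3 genes with the largest called change in each direction and comparison among those with a mean of at least 5 CPM over the 12 libraries. Genes named outside that rule are marked as such or complete a count. No 2 libraries differed as little as sampling noise. Genes passing filterByExpr (minimum count 10, minimum total 15) entered 1 quasi-likelihood model of 4 group means (edgeR 4.0.16, R 4.3.3, TMM, robust), with Benjamini-Hochberg adjustment over all 16648. The SE is the absolute log2 fold change over the square root of F and is approximate. The procedure was tested on simulated counts. A count of 0 was read as allowing 3 counts, for counting error only.

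Alternatives were limma-voom (limma 3.58.1), DESeq2 1.42.0, 4 other scalings, other filters, only the libraries compared, each library left out, and a replicate block. The fit without both replicate 3 libraries with doxorubicin was added after the data were seen. Same-numbered libraries, whose titles give no shared culture or day, deviated together for CFZ-DOX and DOX (r = 0.35 to 0.65), DOX and DMSO (0.21 to 0.26) and CFZ and DMSO (0.30 to 0.42), so blocked values are given where they change a call. For CFZ-DOX with CFZ (0.02 to 0.26) and with DMSO (0.06 to 0.29) they did not in every pair.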

Additional observations from a re-analysis of the deposited data

Results flagged for a closer look

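The effect of carfilzomib differed between cells with and without doxorubicin for 3 of the 10 transcripts by the edgeR interaction test. Of these, 2 were called lower and 1 higher, where 11.2% of all genes tested were called lower and 8.46% higher. The log2 difference was −3.77 for Atf3, −1.68 for Chac1 and 1.42 for Atf5. In every case the difference itself was tested. The Atf5 difference did not pass without CFZ-DOX replicate 1 or CFZ replicate 3, nor with ribosomal protein gene scaling (edgeR adjusted p = 0.0746). The Atf5 replicates with doxorubicin spread more than those without.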

How the results depend on the processing

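Of 2170 values of the 10 transcripts and the named pathway genes under the alternatives, 1987 kept their direction and their side of the threshold. Unless a value shows it, the cause of a change was not tested. Ribosomal protein gene scaling changed most. With it the transcripts called higher and lower became 0 and 7 in CFZ-DOX against DMSO, 0 and 9 in DOX against DMSO, 0 higher in CFZ-DOX against CFZ, 1 and 4 in CFZ-DOX against DOX, and 0 and 5 in the interaction. It turned the log2 fold changes of Atf5 (−1.36), Ddit3 (−0.49), Asns (−1.53), Ero1a (−0.046), Nupr1 (−0.24) and Pycr1 (−0.33) in CFZ-DOX against DMSO, Atf5 (−0.80) and Asns (−0.70) in DOX against DMSO, Atf5 (−0.082), Asns (−1.56), Phgdh (−0.059), Pycr1 (−0.34) and Ppp1ca (−0.35) in CFZ-DOX against CFZ, Atf4 (−0.27), Atf5 (−0.56), Sesn2 (−0.43), Nupr1 (−0.034) and Slc38a2 (−0.083) in CFZ-DOX against DOX, and Atf4 (−0.29) in the interaction. Upper quartile scaling gave 5 called higher in CFZ-DOX and 2 in DOX against DMSO, and 2 in CFZ-DOX against CFZ. It turned Ddit4 in CFZ-DOX against DMSO (0.00091), Ppp1r15a in DOX against DMSO (0.32) and Asns in CFZ-DOX against DOX (0.068). Library size scaling gave 0 called higher in DOX against DMSO and turned Atf5 (−0.067) and Asns (−0.24) in CFZ-DOX and Atf5 (−0.042) in DOX against DMSO, Asns in CFZ-DOX against CFZ (−0.28) and Atf5 in CFZ-DOX against DOX (−0.025). A minimum count of 50 turned Ppp1r15a in DOX against DMSO (0.074) and Asns in CFZ-DOX against DOX (0.014), DESeq2 and its size factors turned Asns there too (0.017 with each), and limma-voom Asns in CFZ-DOX against CFZ (−0.027). DESeq2 called 5 higher in CFZ-DOX against DOX. Without a filter 4 were lower in the interaction. With the replicate number as a block, 5 were higher in CFZ-DOX against DOX and 4 lower in the interaction, Asns in CFZ-DOX against CFZ was −0.020, Ddit4 in CFZ-DOX against DMSO (edgeR adjusted p = 0.0203) and Trib3 (0.0166) and Sesn2 (0.0193) in the interaction passed as well, and no call of the 10 transcripts or named genes was lost. Without both replicate 3 libraries with doxorubicin, 5 were higher in CFZ-DOX and 2 in DOX against DMSO, 5 higher in CFZ-DOX against DOX, and 6 lower in the interaction. Leaving out 1 library gave 0 to 1 higher in DOX against DMSO (0 without DOX replicate 3 or any DMSO library), 2 to 5 higher and 0 to 1 lower in CFZ-DOX against DOX, and 0 to 1 higher and 2 to 7 lower in the interaction. It moved Atf5 between −0.029 and 0.62 and Asns between −0.040 and 0.33 in CFZ-DOX against DMSO, Atf5 between −0.13 and 0.41 and Ppp1r15a between −0.20 and 0.078 in DOX against DMSO, Asns between −0.17 and 0.20 in CFZ-DOX against CFZ, and Atf5 between −0.14 and 0.50, Asns between −0.24 and 0.14, Chac1 between −0.59 and 0.10 and Sesn2 between −0.081 and 0.65 in CFZ-DOX against DOX. Asns in the interaction lay between −0.36 and 0.014. Of all 16648 genes, higher and lower calls by TMM and by ribosomal protein gene scaling were 6536 and 5942 against 1858 and 11407 in CFZ-DOX against DMSO, 6010 and 5213 against 2236 and 9065 in DOX against DMSO, 2402 and 2395 against 1377 and 2365 in CFZ against DMSO, 6722 and 6144 against 2231 and 10860 in CFZ-DOX against CFZ, 1722 and 2005 against 127 and 8778 in CFZ-DOX against DOX, and 1408 and 1862 against 250 and 5194 in the interaction. The share of higher among called genes by upper quartile scaling was 67.3% in CFZ-DOX and 68.5% in DOX against DMSO, 67.2% in CFZ-DOX against CFZ, 64.7% in CFZ-DOX against DOX and 62.4% in the interaction, beside 52.4%, 53.6%, 52.2%, 46.2% and 43.1% by TMM. By library size it was 37.1% in CFZ against DMSO and 19.1% in CFZ-DOX against DOX. Library size scaling gave 1502 higher in CFZ against DMSO and 667 higher in CFZ-DOX against DOX, where DESeq2 gave 2598, upper quartile scaling 2625 and the replicate block 2685. In the interaction these 3 gave 2116, 2195 and 2356 higher, leaving out 1 library 792 to 2172, and leaving out both replicate 3 libraries with doxorubicin 2619 higher and 3117 lower. With only the libraries compared, CFZ against DMSO had 3918 higher and 4007 lower and CFZ-DOX against DOX 461 and 657. Lower calls in CFZ against DMSO were 1510 without CFZ replicate 3, and higher calls in CFZ-DOX against DOX 1048 without DOX replicate 2.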
